A study of Mus musculus with 4 samples.

Results

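The natriuretic peptide receptors and the proteins that make, sense and break down cyclic GMP were examined in mouse podocytes treated with IL-12. The set holds 7 genes of the 54532 in the deposited count table, found by their symbols: the receptors Npr1, Npr2 and Npr3, the cGMP-dependent protein kinases Prkg1 and Prkg2, and the phosphodiesterases Pde5a and Pde3a. It was picked because Npr3 was lower and Prkg2 was higher in these libraries after IL-12, so the changes of its members are given as a description, without a test. The cells were MPC5, a conditionally immortalized mouse podocyte line, which is kept dividing by interferon-γ and a lower temperature and is differentiated without them. The IL-12 treatment group (2 libraries) had received IL-12 at 400 ng/ml, and RNA was taken after 6 h, while the control group (2 libraries) had received saline. No source states that libraries of one group were grown as separate cultures, so their spread, on which the p-values rest, may be technical.

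Natriuretic peptides are hormones that act on the kidney and the vessels. Npr1 and Npr2 are receptors with a guanylyl cyclase inside the cell: Npr1 binds the atrial and B-type peptides, Npr2 binds the C-type peptide, and both make cGMP when bound. Npr3 binds all of these peptides but has no cyclase, and it takes them up for degradation, which is why it is called the clearance receptor. Cyclic GMP then acts through the kinases Prkg1, the soluble type I enzyme of smooth muscle and platelets, and Prkg2, the membrane-bound type II enzyme. Pde5a hydrolyses cGMP, and Pde3a hydrolyses cAMP and is inhibited by cGMP. Podocytes are known to respond to natriuretic peptides with a rise in cGMP.

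The coding sequences show how the members that moved most differ from their relatives. In GENCODE release M21 the longest complete coding sequence of Npr3 has 536 codons before the stop, against 1057 for Npr1 and 1047 for Npr2. That of Prkg2 has 762 codons and that of Prkg1 has 686. The 2 stretches below are shown because they hold the features that set Npr3 and Prkg2 apart. The first is the end of the Npr3 coding sequence (transcript ENSMUST00000066529, GRCm38, minus strand), which includes the short tail inside the cell that Npr3 has where Npr1 and Npr2 carry the cyclase. Its 120 bases lie in exons 7 and 8 of 8, at chr15:11846298-11846305 and chr15:11845177-11845288, and the capitals mark the stop codon. The second is the start of the Prkg2 coding sequence (transcript ENSMUST00000161490, minus strand), whose 60 bases lie in exon 2 of 19 at chr5:99024795-99024854. The capitals mark the codon after the start, which encodes the glycine that carries the lipid anchor of the type II kinase.
Npr3 end: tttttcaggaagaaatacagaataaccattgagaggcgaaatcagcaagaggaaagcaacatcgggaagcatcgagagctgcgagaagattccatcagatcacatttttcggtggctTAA
Prkg2 start: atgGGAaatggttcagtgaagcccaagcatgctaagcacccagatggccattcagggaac

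The libraries held 18355379 to 20098012 counts. Counts differed by more than counting error within a group (chi-square divided by its degrees of freedom, 2.13 for control and 2.41 for IL-12), and by far more between the groups (16.4 to 19.7). Of the 12 podocyte markers in the table, 6 passed the filter on low counts, among them Synpo, Podxl and Actn4, but defining podocyte genes were almost silent: Nphs1, which encodes nephrin of the slit diaphragm, had 1 count over all 4 libraries, and Ptpro and the transcription factor Tcf21 had 0. Markers of other cell types were low for endothelium (0 of 5 passed, summed level 0.0284 to 0.106 FPKM). Of 6 markers of leukocytes, 2 passed, with a summed level of 8.13 to 9.44 FPKM in the control group and 6.03 to 7.90 FPKM in the IL-12 treatment group. By mean level Csf1r went from 4.54 to 2.47 FPKM, but Cd68, the other that passed, from 4.23 to 4.47 FPKM. Ptprc, below the filter, had 3 and 1 counts against 6 and 12, while Adgre1 and Cd3e were at 0. Of 6 mesangial or smooth muscle markers, 3 passed, and the sum, most of it Acta2, was 86.7 to 86.9 and 96.4 to 96.6 FPKM, with Ren1 at 0. Of 5 tubule markers only Lrp2 passed, and the sum was 37.9 to 39.5 and 31.0 to 33.5 FPKM, with Slc34a1 and Umod at 0. The part of these markers in the changes below was not tested, and in bulk RNA fewer cells of a type and less RNA per cell cannot be told apart.

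Of the 7 members, 5 passed edgeR's filterByExpr, which asks for about 10 counts in at least 2 libraries, and 2 had no count in any library. Levels are given as FPKM, counts scaled to gene length and library depth, as deposited, so that genes can be compared with each other, and changes as log2 fold changes of the IL-12 treatment group over the control group from edgeR's fit of the counts. In both IL-12 libraries Prkg2 lay above, and Npr1, Npr2, Npr3 and Pde5a lay below, the range of the controls. Among all 14095 genes that passed the filter, the groups did not overlap for 62.9%, with both IL-12 libraries above for 31.7% and below for 31.2%. At an adjusted p below 0.05, 1 member was higher and 3 were lower, beside 16.1% and 14.4% of all genes tested. With the 2-fold limit of the study added, 1 member was higher (Prkg2) and 0 were lower, beside 0.858% and 0.752% of all genes (1.61% in either direction). Since the set was picked from this contrast, nothing is read from these counts.

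**Figure D1:**
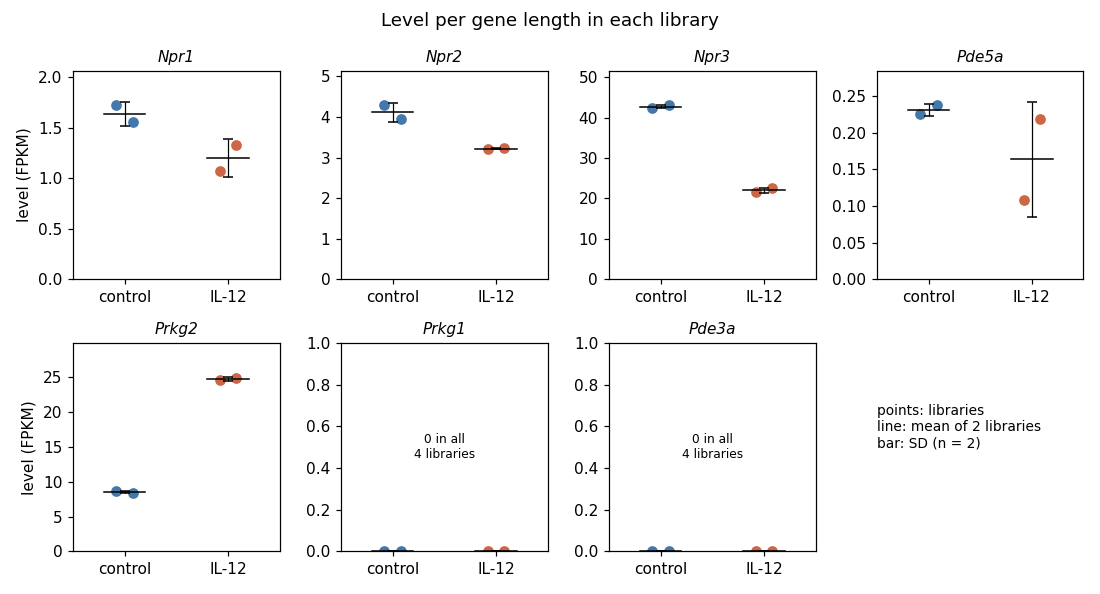
Level of each of the 7 genes (FPKM, linear axis from 0, a separate scale for each gene) in the 2 control libraries and the 2 IL-12 libraries, with points for libraries, a line for the mean and a bar for the SD (n = 2). Prkg2 moved from 8.54 to 24.7 FPKM and Npr3 from 42.7 to 22.0, while Prkg1 and Pde3a had no count in any library.

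Npr3, the clearance receptor, was the most abundant member in the control group. Npr3 (ENSMUSG00000022206) lies on the minus strand of chromosome 15 from 11839896 to 11907287. It received 7561 and 7613 counts without IL-12, and 4008 and 3817 with it. Per gene length, the level of Npr3 was 42.5 and 43.0 FPKM in the control group and 21.6 and 22.5 FPKM in the IL-12 treatment group. The groups lay far apart, with each pair of libraries within a narrow range. The log2 fold change was -0.96 (standard error 0.03), so that IL-12 treated cells held 48.5% less Npr3 mRNA, just short of the 2-fold limit. By level, Npr3 stood above 91.5% of the genes tested in the control group and above 80.6% in the IL-12 treatment group. The gene shares its start region with a lncRNA on the opposite strand, Gm5144, which had 36 counts over the 4 libraries against 22999 for Npr3.

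The cyclase receptors were much lower than Npr3. Npr2 (ENSMUSG00000028469, chromosome 4 from 43631935 to 43651244), the receptor of the C-type peptide, received 379 and 347 counts without IL-12, and 296 and 272 with it. Its level was 4.11 ± 0.240 FPKM (SD, n = 2) and 3.22 ± 0.0112 FPKM (SD, n = 2), and the fitted log2 fold change was -0.36 (standard error 0.10). The control libraries differed from each other by more than the IL-12 libraries did, but both stayed above them. Npr2 overlaps an antisense gene, Gm12473, with 25 and 16 counts without IL-12, and 33 and 12 with it, and no source says that reads were assigned by strand. Npr1 (ENSMUSG00000027931, chromosome 3 from 90450591 to 90465866), the receptor of the atrial and B-type peptides, had 156 and 140 counts against 101 and 115. Its level was 1.64 ± 0.119 FPKM (SD, n = 2) in the control group and 1.2 ± 0.185 FPKM (SD, n = 2) after IL-12, and the fitted log2 fold change was -0.45 (standard error 0.16). Both IL-12 libraries of Npr1 lay below the controls, with a gap between the groups about as wide as the distance between libraries of a group, and without IL-12 library 1 its log2 fold change was -0.30. Without control library 1 the log2 fold changes were -0.37 for Npr1 and -0.29 for Npr2. The count of members lower past an adjusted p of 0.05 depended on single libraries, and nothing is read from it.

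All of the receptors were lower after IL-12, but Npr3 by more than the others. The sum of Npr1 and Npr2 was 6.00 and 5.49 FPKM without IL-12, and 4.28 and 4.55 FPKM with it. The level of Npr3 was 7.07 and 7.82 times this sum without IL-12, and 5.05 and 4.94 times with it. The clearance receptor thus made up 87.6% and 88.7% of the summed receptor level in the control group and 83.5% and 83.2% in the IL-12 treatment group, and in every library it was the main natriuretic peptide receptor by mRNA level. Between the cyclase receptors, Npr2 was 2.49 and 2.54 times Npr1 in the control libraries and 3.0 and 2.42 times in the IL-12 libraries, so this ratio overlapped between the groups.

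**Figure D2:**
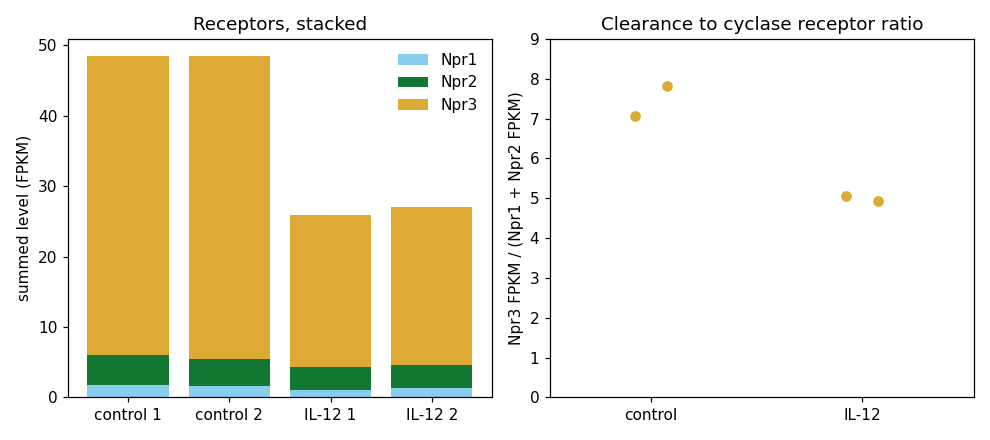
Left, levels of Npr1, Npr2 and Npr3 (FPKM, stacked from 0) in each of the 4 libraries. Right, Npr3 divided by the sum of Npr1 and Npr2 in each library, which was 7.07 and 7.82 in the control group and 5.05 and 4.94 in the IL-12 treatment group.

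Prkg2, the type II cGMP-dependent kinase, was the member that was higher after IL-12. Prkg2 (ENSMUSG00000029334) lies on the minus strand of chromosome 5 from 98929773 to 99037351. It received 879 and 855 counts without IL-12, and 2606 and 2420 with it. The level per gene length was 8.63 and 8.44 FPKM in the control group and 24.6 and 24.9 FPKM in the IL-12 treatment group. The libraries of each group lay close together and the groups far apart. The log2 fold change was 1.53 (standard error 0.05), a ratio of 2.89, which put Prkg2 at rank 98 of the 14095 genes by size of change, where Npr3 was at rank 383. By level, Prkg2 moved from above 57.6% to above 83.0% of the genes tested. A processed pseudogene within the gene, Gm3470, had 5 counts against 6760 for Prkg2.

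The type I kinase was not detected beside it. Prkg1 (ENSMUSG00000052920, chromosome 19 from 30567551 to 31765033) had 0 counts in each of the 4 libraries, which allows a level of up to 0.0195 to 0.0213 FPKM (3 counts per library, counting error only). The deposited Prkg1 gene ends 3′ at 30567551, where GENCODE M21 carries it on to 30564489, and it is the only member whose coordinates differ from that release. Whether reads in that last stretch were counted was not tested. Cstf2t, a separate gene on the opposite strand inside the Prkg1 locus, had 1412 to 1519 counts per library. In the deposited counts Prkg2 was the only cGMP-dependent kinase with reads, before and after IL-12.

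Of the phosphodiesterases of the set, Pde5a was low and Pde3a was not detected. Pde5a (ENSMUSG00000053965, chromosome 3 from 122728947 to 122859374), the cGMP-specific enzyme, received 42 and 44 counts without IL-12, and 21 and 39 with it. Its level was 0.231 ± 0.00851 FPKM (SD, n = 2) and 0.164 ± 0.0788 FPKM (SD, n = 2), and one IL-12 library lay next to the control libraries while the other was well below them. The log2 fold change of -0.51 (standard error 0.32) was -0.076 without IL-12 library 1 and -1.09 without IL-12 library 2. The IL-12 libraries thus differed too much from each other to give a size for Pde5a. Pde3a (ENSMUSG00000041741, chromosome 6 from 141249269 to 141507448) had 0 counts in each library, which allows up to 0.0119 to 0.0130 FPKM.

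The order of the levels changed at its top. In the control group it was Npr3, Prkg2, Npr2, Npr1 and Pde5a, and the libraries of no neighbours in this order overlapped. In the IL-12 treatment group Prkg2 stood above Npr3, with 24.7 ± 0.270 FPKM (SD, n = 2) against 22.0 ± 0.634 FPKM (SD, n = 2). The ratio of Prkg2 to Npr3 was 0.203 and 0.196 without IL-12, and 1.14 and 1.11 with it. Below them the order stayed that of the control group.

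Genes with a like pattern were looked up by the Euclidean distance of centred log2 CPM (counts scaled to library depth) over the 4 libraries, among 12773 genes of at least 1 CPM. Nearest to Npr3 were Cys1 (distance 0.0345), Rasl11a (0.0617) and 2210011C24Rik (0.0710). Cys1, the gene of the cilium protein cystin, had 17.3 and 17.7 CPM without IL-12, and 8.59 and 9.18 CPM with it. Rasl11a, which encodes a small GTPase of the Ras type, had 105 and 99.9 CPM against 52.0 and 53.1 CPM. Nearest to Prkg2 were Ctgf (0.0487), Col4a4 (0.0610) and the lincRNA Gm14005 (0.0724). Col4a4, a chain of the type IV collagen of the glomerular basement membrane, had 18.1 and 18.6 CPM against 53.2 and 54.7 CPM, and Gm14005 had 2.85 and 2.91 CPM against 8.69 and 8.73 CPM. With 4 libraries the distance describes little more than the size of the change.

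The other genes of the pathway were then described from 8 lists of 97 genes that hold none of the members. Of these, 45 passed the filter, 25 were called at an adjusted p below 0.05 by edgeR's quasi-likelihood test with adjustment over all 14095 genes, and 12 of the 25 were higher and 13 lower. The share called was 55.6%, beside 30.5% of all genes tested, and the median log2 fold change was -0.03, beside -0.0022 over all genes. The lists were chosen with earlier results of these data known, so nothing is read from this share. Of the 25 calls, 11 held under all 14 alternative settings, and named genes whose call did not are given below with the number under which it did. With scaling by total counts only, 40.5% of all calls were higher, against 52.8% in the main fit. With 2 libraries a group, the smallest two-sided p of an exact permutation test is 0.333, and the p-values given here depend on edgeR's pooling of the spread over genes.

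On the ligand side, the mRNA of the B-type peptide rose and that of neprilysin, a protease that degrades natriuretic peptides, fell. Of 9 listed genes 6 were tested, 2 were higher and 2 lower. Nppb (ENSMUSG00000029019, chromosome 4 from 147985788 to 147987205), which encodes the B-type natriuretic peptide, received 68 and 76 counts without IL-12, and 168 and 176 with it. Its level was 4.59 and 5.16 FPKM against 10.9 and 12.5 FPKM. Both IL-12 libraries lay well above the controls, with a change of 1.25 on the log2 scale (standard error 0.16, adjusted p = 7.42e-06), and Nppb was past the 2-fold limit. Mme (ENSMUSG00000027820, chromosome 3 from 63241537 to 63386030), which encodes neprilysin, the membrane protease that degrades natriuretic peptides, had 4854 and 4965 counts against 2698 and 2833. Its level fell from 22.5 ± 0.447 FPKM (SD, n = 2) to 12.7 ± 1.24 FPKM (SD, n = 2), or by 0.83 on the log2 scale (standard error 0.05, adjusted p = 3.79e-10). Both of these calls held under all 14 alternatives. Ide, another protease gene of the list, was not called (log2 fold change 0.04, adjusted p = 0.512). Its mean level was 31.7 FPKM in the control group and 32.6 FPKM in the IL-12 treatment group, above that of Mme in both.

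The other ligands were barely expressed. Nppa, the atrial peptide, had 11 and 12 counts against 9 and 7 (adjusted p = 0.509), and Nppc, the C-type peptide, had at most 1 count in a library. Furin, a proprotein convertase that processes natriuretic peptide precursors, rose by 9.96% (log2 fold change 0.14, adjusted p = 0.0119, called in 8 of 14 alternatives). Ece1, an endothelin-converting enzyme, fell by 0.12 on the log2 scale (adjusted p = 0.0372, called in 7 of 14), and by 0.080 without control library 1.

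**Figure D3:**
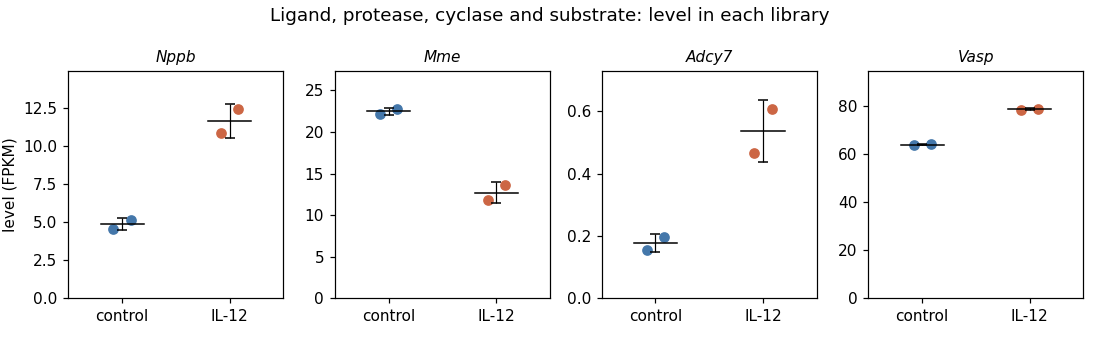
Level (FPKM, linear axis from 0) of Nppb, Mme, Adcy7 and Vasp in the 2 control and 2 IL-12 libraries, with points for libraries, a line for the mean and a bar for the SD (n = 2). In both IL-12 libraries Nppb, Adcy7 and Vasp lay above, and Mme below, the range of the controls.

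No other source of cGMP passed the filter. The list of the soluble guanylyl cyclases, the other membrane cyclases, their peptides and the nitric oxide synthases held 14 genes, of which 0 passed and 5 had no count in any library. Gucy1a1, the α1 subunit of the soluble cyclase that nitric oxide activates, had 2 counts in one IL-12 library and 0 in the others, and its partner Gucy1b1 had 0 in all. Nos3, the endothelial nitric oxide synthase, received 4 and 5 counts without IL-12, and 14 and 3 with it. Among the guanylyl cyclases, the natriuretic peptide receptors Npr1 and Npr2 were thus those whose mRNA was above the filter.

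In the list of the other phosphodiesterases of cGMP and their subunits, 4 of 14 were tested, 1 was higher and 1 lower. Pde10a, which hydrolyses both cAMP and cGMP, had 99 and 120 counts against 185 and 163, and rose by 0.66 on the log2 scale (standard error 0.15, adjusted p = 0.00186, called in 12 of 14 alternatives). Pde6d, named as a subunit of the photoreceptor enzyme and known as a carrier of lipid-anchored proteins, fell by 0.23 on the log2 scale (adjusted p = 0.0281, called in 7 of 14), and by 0.15 without IL-12 library 2. By level in the control group, the enzymes Pde3b (0.963 FPKM) and Pde10a (0.451 FPKM) were above Pde5a, and Pde1a (0.167 FPKM) was below it. Pde1a had 23 and 15 counts against 10 and 8. Its log2 fold change was -1.07 (standard error 0.46), and it was not called (adjusted p = 0.0932). Of the 8 enzymes specific for cAMP, 6 were tested, 2 were higher (Pde4a by 0.34 and Pde4b by 0.22 on the log2 scale) and 2 lower (Pde7a by 0.33 and Pde4c by 0.76). The call of Pde7a (adjusted p = 3.37e-05) held under all 14 alternatives, and those of Pde4a, Pde4b and Pde4c under 11, 9 and 8.

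Of 21 substrates and effectors of the cGMP-dependent kinases, 12 were tested, 4 were higher and 3 lower, and none was past the 2-fold limit. The levels here are of mRNA, and the activity of the kinases was not measured. Vasp, which encodes an actin regulator, received 3165 and 3161 counts without IL-12, and 4056 and 3731 with it. Its level rose from 63.9 ± 0.191 FPKM (SD, n = 2) to 78.6 ± 0.332 FPKM (SD, n = 2), or by 0.30 on the log2 scale (standard error 0.04, adjusted p = 5.53e-06). Itpr1, the calcium release channel of the endoplasmic reticulum, rose by 0.35 (standard error 0.04, adjusted p = 1.10e-06) and the actin-binding protein gene Lasp1 by 0.17 (adjusted p = 0.000448). These calls held under all 14 alternatives. Hspb6, a small heat shock protein, fell by 0.36 (adjusted p = 0.0234), and it is uncertain because Proser3 and Lin37 overlap it on the opposite strand with 1074 and 714 counts against its own 1004. Gsk3b and Gtf2i fell by 0.11 each (adjusted p = 0.0317 and 0.0165), and Hspb6, Gsk3b and Gtf2i were called in 8, 8 and 9 of 14 alternatives. Without IL-12 library 1 the log2 fold change of Gsk3b was -0.068. Trpc6, a podocyte cation channel that cGMP-dependent kinase inhibits in other cells, had 0 counts in all 4 libraries.

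Cyclic nucleotide channels and exporters of cGMP gave 3 tested genes of 12, of which 0 were higher and 1 lower. Abcc5, an exporter of cyclic nucleotides, fell by 0.15 on the log2 scale (adjusted p = 0.00231, called in 13 of 14 alternatives). Its relative Abcc4 had a log2 fold change of 0.08 (adjusted p = 0.0783).

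The list of inhibitory G proteins, through which Npr3 is reported to act on adenylyl cyclase, and of the adenylyl cyclases held 13 genes, of which 9 were tested, 1 was higher and 3 were lower. Adcy7 (chromosome 8 from 88272403 to 88329962) received 20 and 25 counts without IL-12, and 62 and 74 with it. Its change on the log2 scale was 1.59 (standard error 0.28, adjusted p = 0.000212), past the 2-fold limit, and the call held under all 14 alternatives. It stayed a minor cyclase by level, with 0.537 FPKM after IL-12 against 31.1 FPKM for Adcy6. Adcy6 fell by 0.32 (standard error 0.03, adjusted p = 1.19e-06), Adcy9 by 0.32 (adjusted p = 0.0342, called in 7 of 14 alternatives) and the G protein subunit Gnai1 by 0.47 (standard error 0.08, adjusted p = 0.000221). Without control library 1 the log2 fold change of Adcy9 was -0.20. The more abundant subunits Gnai2 and Gnai3 had log2 fold changes of -0.07 and 0.08 and were not called.

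Of 6 subunits of the cAMP-dependent kinase, 5 were tested, 2 were higher and 1 lower. The type II regulatory subunits Prkar2b and Prkar2a rose by 0.48 and 0.34 on the log2 scale (adjusted p = 0.00148 and 7.47e-06), and both calls held under all 14 alternatives. The catalytic subunit Prkaca fell by 0.10 (adjusted p = 0.0459, called in 5 of 14).

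**Figure D4:**
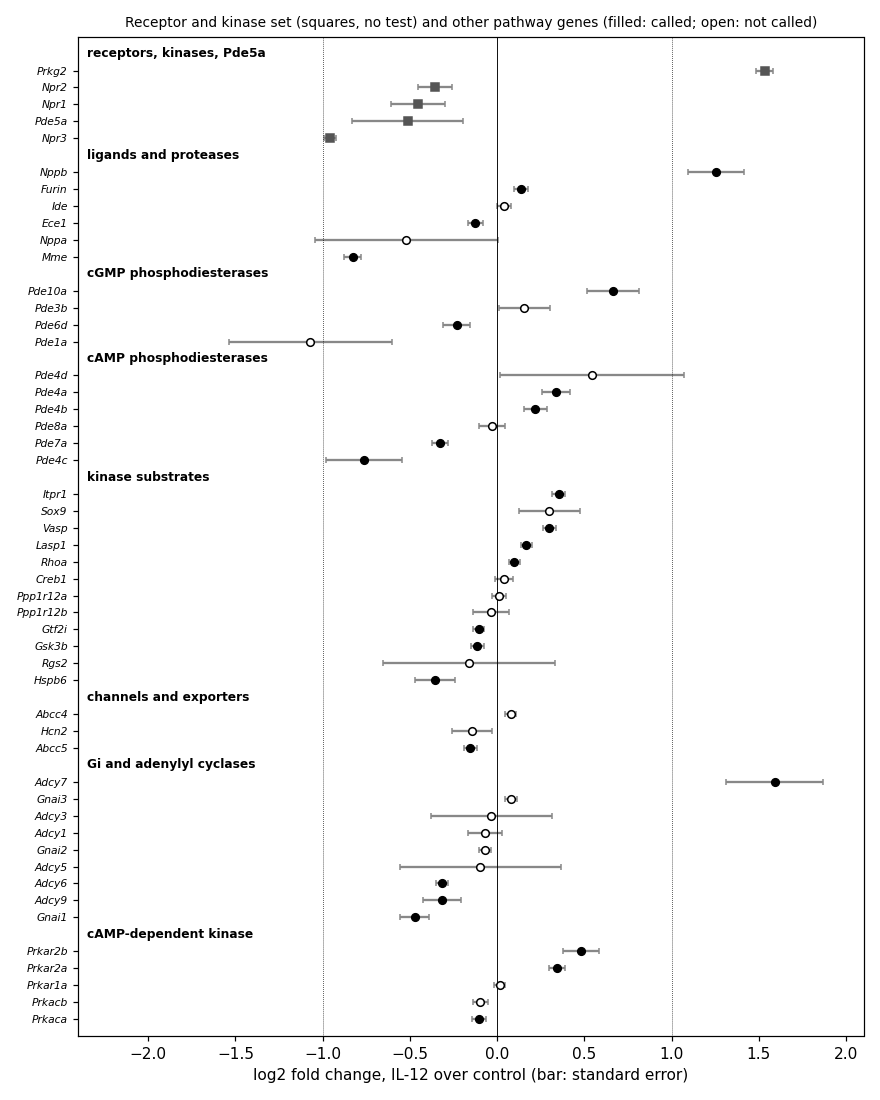
Log2 fold changes (IL-12 over control, with bars for the standard error) of the 5 members that passed the filter, as squares without a test, and of the 45 other pathway genes tested, filled where the adjusted p was below 0.05. Dotted lines mark the 2-fold limit. Among the other pathway genes, only Nppb and Adcy7 passed it at an adjusted p below 0.05. Of the members, only Prkg2 lay beyond it.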

How the data were processed

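The authors deposited raw counts per gene, whole numbers without normalization, and FPKM values, which equal the count scaled to gene length and library total times one factor per library (0.985 to 1.02). The submitters' processing notes name HISAT2, StringTie and mm9, yet 98.3% of 54409 shared genes carry the coordinates of GENCODE M21 (GRCm38), the build given here. The handling of strand and of reads that match several genes is not given in the sources used here.

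Counts were tested in R 4.3.3 with edgeR 4.0.16 (filterByExpr, minimum 10 counts and 15 in total, 14095 genes; TMM scaling; quasi-likelihood test; Benjamini-Hochberg adjustment). Genes were called at an adjusted p below 0.05, and the 2-fold limit is the study's. CPM are TMM-scaled. The standard error was taken as the size of a log2 fold change over the root of its F value. Alternatives used DESeq2 1.42.0, limma 3.58.1 (voom, and log2(FPKM + 1) or log2(FPKM + 0.1)), other scalings and filters, a replicate block and each library left out. The tests were checked on simulated counts. The depth allows a floor of 3 counts, 0.152 to 0.166 CPM. The members and lists were chosen with earlier results of these data known. Besides the members, the named genes are Nppa, Nppb, Nppc, Gucy1a1, Gucy1b1, Vasp and Trpc6, up to 3 called genes with the smallest p in each direction of each list, and the 3 genes nearest in pattern to Npr3 and to Prkg2. Ide, Nos3, Pde1a, Pde3b, Abcc4, Gnai2 and Gnai3 were added after their values were seen. Coding sequences came from GENCODE M21 transcripts. Figures were drawn with matplotlib 3.10.9 in Python 3.11.15. The values of 1 podocyte marker are not reported here.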

Additional observations from a re-analysis of the deposited data

How the results depend on the processing

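The signs of the changes of Npr1, Npr2, Npr3, Prkg2 and Pde5a were the same under every alternative run. The alternatives reuse the libraries from which Npr3 and Prkg2 were picked for their directions, so nothing is read from this. For Pde5a the log2 fold change without IL-12 library 1 was only -0.076. With log2(FPKM + 1) the log2 fold changes were -0.26 for Npr1, -0.28 for Npr2, -0.92 for Npr3 and 1.43 for Prkg2, where the added 1 shrinks the change of low genes. With total counts only, they were -0.997 for Npr3 and 1.49 for Prkg2. Members past the adjusted p threshold and lower numbered 1 with the DESeq2 Wald test, against 3, and nothing is read from this count. Pathway genes called higher numbered 7 with log2(FPKM + 0.1) and 7 with log2(FPKM + 1), against 12, and those called lower, against 13, numbered 6 with DESeq2, 5 and 5 with those FPKM scales and 7 with no filter. Over all genes, 2267 were higher and 2030 lower, against 1492 and 1213 with DESeq2, while 1277 and 1280 were lower with log2(FPKM + 0.1) and log2(FPKM + 1). Past 2-fold, 121 were higher and 106 lower, against 64 and 39 with DESeq2, 30 and 8 with log2(FPKM + 1), and 55 lower with log2(FPKM + 0.1). The causes were not tested.

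With single libraries left out, the log2 fold change ranged from -0.61 to -0.30 for Npr1, -0.42 to -0.29 for Npr2, -0.98 to -0.93 for Npr3, 1.52 to 1.55 for Prkg2 and -1.09 to -0.076 for Pde5a. Pathway genes called lower ranged from 6 (without IL-12 library 1) to 10, with 7 without IL-12 library 2 or control library 1. Among named pathway genes, calls were lost without IL-12 library 1 for Furin, Ece1, Pde4c, Gtf2i, Gsk3b, Abcc5, Adcy9 and Prkaca, without IL-12 library 2 for Ece1, Pde6d, Pde4a, Pde4b, Pde4c, Hspb6, Gtf2i, Adcy9 and Prkaca, without control library 1 for Ece1, Pde6d, Pde4c, Gtf2i, Gsk3b, Adcy9 and Prkaca, and without control library 2 for Furin, Pde6d, Hspb6 and Prkaca. The count of members past the threshold and lower also depended on the library left out, and nothing is read from it. Over all genes, 1404 to 2010 were higher and 1124 to 1712 lower, and 62 to 123 were lower past 2-fold, each lowest without IL-12 library 1.

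The groups share the replicate numbers 1 and 2, and no source says whether same-numbered libraries were paired. Their deviations were not correlated across genes (correlation -0.026). With 2 libraries a group this value cannot exclude a shared culture or preparation. Under the replicate block, values were -0.45 for Npr1, -0.36 for Npr2, -0.96 for Npr3, 1.53 for Prkg2 and -0.53 for Pde5a on the log2 scale, 11 pathway genes were higher and 12 lower, and 2272 and 2069 of all genes. The calls of Rhoa and Prkaca were lost.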
